A study of Rattus norvegicus with 20 samples.

Results

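The right ventricle pumps blood into the pulmonary artery, and banding of that artery makes it work against a raised pressure for as long as the band stays in place. The comparison described here is of time under load: right ventricles taken 8 weeks after pulmonary banding, at an age of 11 weeks (banding 8 weeks), were set against right ventricles taken 4 weeks after banding, at an age of 7 weeks (banding 4 weeks). The libraries were chosen by their labels, 4 of banding 8 weeks (replicates 1, 3, 4 and 5) and 5 of banding 4 weeks, which are 9 of the 19 libraries with values and of the 20 samples labelled. Replicate 2 of banding 8 weeks was not analysed here. The same step in time and age without a band was read from 5 sham-operated ventricles at 8 weeks and 5 at 4 weeks. The fold changes of the banding comparison use none of these, but its SEs and p-values do, since all 4 groups share 1 estimate of the spread. All rats were Wistar, an outbred laboratory strain, and carried no labelled drug or transgene. RNA came from the whole right ventricle, so fewer cells of a type and less RNA per cell cannot be told apart. Time under the band, age and any day of collection also cannot be told apart.

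Recovered totals were 5.21 ± 2.56 M reads in banding 8 weeks (2.70 to 8.54 M, SD, n = 4), 5.86 ± 1.46 M in banding 4 weeks, 5.65 ± 1.73 M in sham 8 weeks and 5.93 ± 0.807 M in sham 4 weeks (SD, n = 5 each), and replicate 1 of banding 8 weeks was the shallowest. Values are the authors' normalized counts, reads divided by a size factor for each library. The ventricular light chain Myl2 was high in all banded libraries, between 33956 and 41577 in banding 8 weeks and between 35065 and 51280 in banding 4 weeks. The atrial light chain Myl7 ran from 24.7 to 2315 in banding 8 weeks and from 64.2 to 1160 in banding 4 weeks, and it passed 1000 in replicate 3 of the 8-week group and replicate 2 of the 4-week group, called the atrial-rich banded libraries here. The whole atrial list had 0 of 13 tested members called over time in banding by limma, edgeR or DESeq2 and 0 at an unadjusted p under 0.05, and its summed level was between 40703 and 54248 in banding 8 weeks and between 20904 and 47969 in banding 4 weeks. The natriuretic peptide gene Nppa is a member and averaged 27893 and 19773 in these groups, so the sum largely follows this 1 gene.

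Type I interferons act through a cell surface receptor and a DNA element built around a pair of GAAA blocks with any 2 bases between them, and switch on antiviral genes such as the oligoadenylate synthetase and IFIT families. Heart cells of the growing rodent still divide in the first weeks of life, and genes of mitosis are switched on together, many from promoters with CCAAT boxes and the CHR element TTTGAA. The rodent ventricle makes mostly the fast α-myosin heavy chain (Myh6) after birth and returns to the slow β chain (Myh7) under load.

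Promoters of 5 called genes from the 2 main groups are shown as examples of these letters. They are Oasl2, Ifit3 and Rsad2 among interferon-induced genes that rose, and Top2a and Ccnb1 among mitotic genes that fell. Not every called member has the letters. Each sequence is the 250 bases before the gene's start, read on the gene's own strand, from RefSeq on the build GRCr8: Oasl2 at chr12:47383186-47383435 (minus strand), Ifit3 at chr1:241527076-241527325 (plus strand), Rsad2 at chr6:48788121-48788370 (minus strand), Top2a at chr10:84473094-84473343 (minus strand) and Ccnb1 at chr2:33655226-33655475 (minus strand). Capitals mark a match, on either strand, to the interferon element (GAAA, any 2 bases, GAAA) in the first 3 sequences and to CCAAT or TTTGAA in the last 2.
Oasl2: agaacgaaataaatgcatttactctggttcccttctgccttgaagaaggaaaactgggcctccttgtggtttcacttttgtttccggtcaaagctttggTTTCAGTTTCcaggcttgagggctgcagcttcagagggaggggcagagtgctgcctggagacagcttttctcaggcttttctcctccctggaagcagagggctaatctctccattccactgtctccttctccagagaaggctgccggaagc
Ifit3: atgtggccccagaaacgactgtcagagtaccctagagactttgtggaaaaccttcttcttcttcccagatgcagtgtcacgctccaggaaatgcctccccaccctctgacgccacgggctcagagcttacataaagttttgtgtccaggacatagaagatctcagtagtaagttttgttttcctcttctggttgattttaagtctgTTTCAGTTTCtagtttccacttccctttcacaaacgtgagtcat
Rsad2: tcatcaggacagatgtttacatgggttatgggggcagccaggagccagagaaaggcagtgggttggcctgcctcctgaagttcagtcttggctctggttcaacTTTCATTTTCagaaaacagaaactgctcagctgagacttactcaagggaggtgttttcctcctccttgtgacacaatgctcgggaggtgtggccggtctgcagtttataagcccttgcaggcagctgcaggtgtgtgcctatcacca
Top2a: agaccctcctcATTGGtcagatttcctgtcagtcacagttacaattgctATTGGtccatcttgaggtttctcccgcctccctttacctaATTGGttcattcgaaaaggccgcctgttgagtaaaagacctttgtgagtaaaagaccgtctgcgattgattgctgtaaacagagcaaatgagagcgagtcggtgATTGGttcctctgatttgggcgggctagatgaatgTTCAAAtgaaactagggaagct
Ccnb1: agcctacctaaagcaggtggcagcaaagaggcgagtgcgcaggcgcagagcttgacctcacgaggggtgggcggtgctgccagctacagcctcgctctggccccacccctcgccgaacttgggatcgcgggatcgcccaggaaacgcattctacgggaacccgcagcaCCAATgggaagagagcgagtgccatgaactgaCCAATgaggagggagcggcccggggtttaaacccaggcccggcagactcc
The interferon element began 151 bases before the start of Oasl2, 44 before that of Ifit3 and 147 before that of Rsad2, each time on the opposite strand. Top2a had 4 CCAAT boxes, which began 239, 201, 161 and 57 bases before the start, and 1 TTTGAA at 22 bases. Ccnb1 had 2 CCAAT boxes, at 82 and 50 bases, and no TTTGAA in this window.

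Over windows that run from 250 bases before to 50 after the start, the interferon element was found on either strand in 16 of the 24 interferon-response genes that had a window (66.7%), against 1034 of all 27457 windows (3.77%) and 261 of the windows of 8882 genes tested here (2.94%). CCAAT was found in 19 of 26 cell cycle genes (73.1%), against 37.7% of all windows, and TTTGAA in 11 of 26 (42.3%), against 18.1%. Of the members called in banding, 5 of 5 interferon genes with a window had the interferon element. Among 12 called cell cycle genes, 9 had CCAAT (75%) and 7 had TTTGAA (58.3%), and Bub1 and Tyms had neither. Windows were at hand for 24 of 34 tested interferon genes and 26 of 34 tested cell cycle genes. No motif overlapped another in the 5 sequences shown. These are matches of letters and say nothing about which factor was bound. Both lists were written from general knowledge of such genes, so the shares describe the lists and are no result of the comparison.

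By limma on log2(normalized count + 1), 125 of 10926 genes (1.14%) differed between banding 8 weeks and banding 4 weeks at a Benjamini-Hochberg adjusted p under 0.05, 53 higher (0.485%) and 72 lower (0.659%). The genes that rose included interferon-induced genes, Myh7, Xirp2 and the globins Hbb-b1 and Hbbl1, and those that fell included genes of mitosis, histones and mast cell proteases. At least a 2-fold change was seen in 9 of the 53 and in 42 of the 72, with median log2 fold changes of 0.58 and −1.11. The libraries of both groups did not overlap for 38 of the 53 and 68 of the 72, beside 244 genes (2.23%) without overlap on the higher side and 332 (3.04%) on the lower side among all tested. The counts depended on single libraries: without replicate 1, 3, 4 or 5 of banding 8 weeks, 29, 22, 34 and 33 genes were called higher and 39, 24, 52 and 48 lower, and without replicate 1, 2 or 5 of banding 4 weeks, 15, 29 and 12 were called higher and 23, 40 and 27 lower. Without the atrial-rich libraries 26 were called higher and 24 lower. Nothing in the labels says that replicates are separate animals, so the p-values measure the spread between these samples. The authors' deposited table called 134 genes higher and 137 lower at 8 weeks, and 124 of the 125 limma calls were among them in the same direction.

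Counts of list members are read against the share of all tested genes that met the same rule. Between banding 8 weeks and banding 4 weeks, 5.27% of genes had no overlap in either direction, 49.5% lay below 0, and 7.0% were higher and 7.03% lower at an unadjusted p under 0.05. EdgeR called 0.54% higher and 0.622% lower there, and DESeq2 1.22% and 1.26%. Between sham 8 weeks and sham 4 weeks, 51.5% of genes lay above 0 and 48.5% below, 10.3% were higher and 11.0% lower at an unadjusted p under 0.05, edgeR called 2.65% higher and 4.22% lower, and DESeq2 3.95% and 5.1%. For the difference between both time effects, 50.7% lay above 0 and 49.3% below, 5.85% were higher and 5.85% lower at an unadjusted p under 0.05, edgeR called 0.0275% higher and 0.0% lower, and DESeq2 0.477% and 0.304%.

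Interferon-induced genes were higher 8 weeks after banding. Of 34 tested members of the interferon-response list, 7 rose (Oasl2, Ifi44, Ifit3, Oas1b, Rsad2, Mx2 and Usp18), 33 had a log2 fold change above 0, and the median was 0.44, beside 50.5% of all genes above 0 and a median of 0.00. In 6 members the libraries did not overlap. The summed normalized counts of the list were 10836, 8029, 8762 and 9454 in replicates 1, 3, 4 and 5 of banding 8 weeks, against 5928, 6320, 8557, 6079 and 7235 in banding 4 weeks. Replicate 3 of banding 4 weeks stood above its group and above replicate 3 of banding 8 weeks, and replicate 1 of banding 8 weeks was the highest of all 9. Leaving out single banded libraries left 1 member called without replicate 1 of banding 8 weeks, 4 without replicate 4, 3 without replicate 5, and 2, 3, 15 and 3 without replicates 1, 2, 3 and 5 of banding 4 weeks. Without the atrial-rich libraries 2 were called.

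Oasl2 (NM_001009682), an oligoadenylate synthetase-like antiviral protein, had 104, 64.5, 94.9 and 87.8 normalized counts in banding 8 weeks and 35.4, 31.5, 57.2, 30.8 and 33.7 in banding 4 weeks. Every library of banding 8 weeks lay above every library of banding 4 weeks, although replicate 3 of the 4-week group came close. The log2 fold change was 1.22 ± 0.22 (SE; limma, adjusted p = 0.0147), and the call held without any 1 banded library. Ifit3 (NM_001007694), a member of the antiviral IFIT family, had 421, 191, 178 and 231 in banding 8 weeks and 51.9, 77.2, 149, 108 and 108 in banding 4 weeks. The groups were separate, with replicate 1 of banding 8 weeks far above the rest. Ifit3 rose by 1.35 ± 0.28 (limma, adjusted p = 0.0196), and the call was lost without replicate 1 of either group (adjusted p of 0.0534 and 0.0647). Rsad2 (NM_138881), which encodes the antiviral enzyme viperin, was named after its values were seen, with 368, 427, 280.0 and 348 in banding 8 weeks and 176, 167, 287, 231 and 237 in banding 4 weeks. Replicate 4 of banding 8 weeks lay under replicate 3 of banding 4 weeks, so the groups overlapped. Rsad2 rose by 0.71 ± 0.16 (limma, adjusted p = 0.0283), and its call was lost without replicate 1, 3 or 5 of banding 8 weeks or 1, 2 or 5 of banding 4 weeks.

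**Figure D1:**
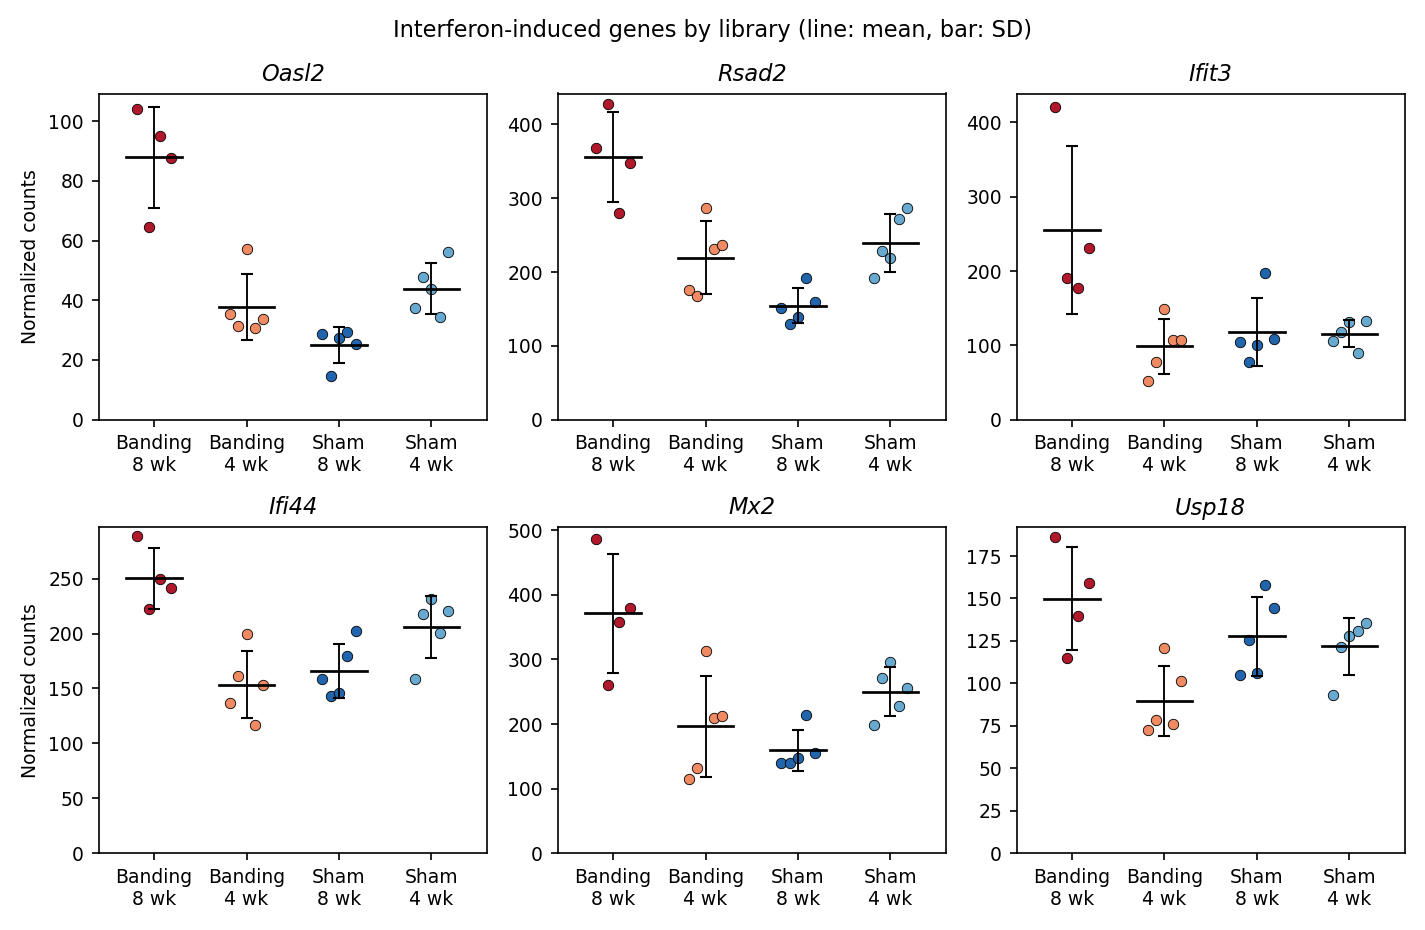
Normalized counts (y axis, linear, from 0) of 6 interferon-induced genes in each library of the 4 groups, with the group mean as a line and the SD as a bar. The banding 8 weeks libraries were the highest for Oasl2, between 64.5 and 104, above 30.8 to 57.2 in banding 4 weeks, 14.8 to 29.2 in sham 8 weeks and 34.4 to 56.1 in sham 4 weeks.

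Ifi44, a cytoplasmic protein named for its induction by interferon, averaged 250.2 ± 27.9 in banding 8 weeks and 154 ± 30.9 in banding 4 weeks (SD, n = 4 and n = 5), with no overlap. It rose by 0.72 ± 0.14 (limma, adjusted p = 0.0167), and without replicate 1 of banding 8 weeks its adjusted p was 0.0511. Oas1b, an oligoadenylate synthetase with near-identical copies in rodents and so uncertain, averaged 84.6 ± 13.8 and 47.1 ± 13.5 and rose by 0.86 ± 0.19 (limma, adjusted p = 0.0283). Mx2, a GTPase that blocks viral replication, and Usp18, the protease that removes ISG15 and damps the receptor, were named after their values were seen. Mx2 averaged 372 ± 92.6 and 196 ± 78.7 and rose by 0.97 ± 0.22 (limma, adjusted p = 0.0315). Usp18 averaged 149.9 ± 30.3 and 89.9 ± 20.6 and rose by 0.74 ± 0.17 (limma, adjusted p = 0.0327). The calls of Oas1b, Mx2 and Usp18 were each lost without replicate 1, 4 or 5 of banding 8 weeks or 1, 2 or 5 of banding 4 weeks, and those of Oas1b and Usp18 also without replicate 4 of banding 4 weeks.

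The other members, named here after their values were seen, did not pass. Irf7, the factor that amplifies interferon production, changed by 0.88 on the log2 scale without passing (limma, adjusted p = 0.0501) and Oas2 of 1.31 (0.0508). Stat2 and Irf9, which carry the interferon signal to DNA, had log2 fold changes of 0.24 and 0.33, and the chemokine Cxcl10 was the single member below 0, at −0.14. Outside the list, Ifi27l2b, of the interferon-inducible IFI27 family, which has close copies and makes the value uncertain, had 471, 368, 438 and 455 in banding 8 weeks and 186, 203, 293, 228 and 277 in banding 4 weeks, with no overlap, and rose by 0.88 ± 0.15 (limma, adjusted p = 0.00963). RT1-S3, a class I gene of the rat major histocompatibility complex, had 483, 433, 433 and 516 and 175, 226, 415, 239 and 302, and replicate 3 of banding 4 weeks again came close to the 8-week libraries. It rose by 0.83 ± 0.16 (limma, adjusted p = 0.0166). The calls of Ifi27l2b and RT1-S3 held without any 1 banded library, but RT1 genes share near-identical sequence, which makes each value uncertain. Other class I genes called, chosen after their values were seen, were RT1-CE2 (0.73) and RT1-T24-3 (0.68).

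Markers of other cells were read beside the interferon genes. The macrophage list had 0 of 25 tested members called by limma, edgeR or DESeq2, 0 at an unadjusted p under 0.05 and a median log2 fold change of 0.07, and its summed level was between 11808 and 13742 in banding 8 weeks and between 10506 and 13245 in banding 4 weeks. The list of T, B and natural killer cells had 11 of 26 members tested, 0 called by limma, edgeR or DESeq2, 1 higher at an unadjusted p under 0.05, a median of 0.27 and sums between 493 and 573 in banding 8 weeks and between 377 and 486 in banding 4 weeks, and Cd3e and Ms4a1, which mark T and B cells, were not among the members tested. Antigen presentation had 0 of 13 called by limma or edgeR, 1 by DESeq2 and 5 higher at an unadjusted p under 0.05. In the complement list 1 of 17 rose and 16 lay above 0, with a median of 0.37. Its called member was Serping1, the inhibitor of the first complement component, which averaged 1004 ± 173 in banding 8 weeks and 638 ± 66.5 in banding 4 weeks, with no overlap, and rose by 0.64 ± 0.13 (limma, adjusted p = 0.0206), a call lost without replicate 3 or 4 of banding 8 weeks or 1 or 5 of banding 4 weeks. What part these cell markers have in the interferon result was not tested.

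In sham ventricles the same step in age went the other way for this list. Over 8 against 4 weeks, 4 of the 34 members fell, 6 lay above 0 and the median was −0.27, in a comparison that called 714 genes (6.53%), 292 higher (2.67%) and 422 lower (3.86%). The sham count was 462 without replicate 2 and 443 without replicate 3 of sham 8 weeks, 423 without replicate 3 of sham 4 weeks, and 157 without the atrial-rich libraries of all groups, 5 of them sham. Summed counts of the list were between 5825 and 7216 in sham 8 weeks and between 6717 and 7891 in sham 4 weeks. A test of the difference between both time effects called 3 of 10926 genes (0.0275%), all higher, and 2 of the 3 were interferon-induced. In the interferon list 33 of 34 differences lay above 0, with a median of 0.77 and 28 at an unadjusted p under 0.05, and edgeR called 2 and DESeq2 12. Oasl2 averaged 25.04 ± 5.95 in sham 8 weeks and 43.9 ± 8.61 in sham 4 weeks, a change of −0.80 ± 0.21 (limma, adjusted p = 0.0231), and the change in banding minus that in sham was 2.02 ± 0.31 (limma, adjusted p = 0.0101). Rsad2 averaged 154 ± 23.7 and 239.6 ± 39.04, a change of −0.63 ± 0.15 (limma, adjusted p = 0.013), and the difference was 1.34 ± 0.21 (limma, adjusted p = 0.0101). Ifi44 and Mx2 had differences of 1.03 ± 0.19 and 1.63 ± 0.30 that did not pass (limma, adjusted p = 0.052 for each).

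The third gene of this test was Fxyd6, a regulator of the sodium pump, chosen after its values were seen. Fxyd6 had 340.4, 268, 341 and 366 in banding 8 weeks and 329, 288, 316, 314 and 313 in banding 4 weeks, with overlap and a change of 0.07 ± 0.10 (limma, adjusted p = 0.826). In sham 8 weeks it had 113, 138, 134, 149 and 147, against 222, 265, 212, 267 and 229 in sham 4 weeks, with no overlap and a change of −0.81 ± 0.10 (limma, adjusted p = 5.62e-05). The difference was 0.87 ± 0.14 (limma, adjusted p = 0.0101). Without replicate 5 of banding 8 weeks its adjusted p was 0.0509. The differences of Oasl2 and Rsad2 did not pass without the atrial-rich libraries of all groups (adjusted p = 0.0826 and 0.164, at 1.96 and 1.20). Counts of this test also moved with 1 library, to 16, 9 and 15 genes without replicates 1, 3 and 4 of banding 8 weeks, 19 without replicate 3 of banding 4 weeks, 23, 5 and 7 without replicates 1, 4 and 5 of sham 8 weeks, and 5 and 23 without replicates 1 and 2 of sham 4 weeks. On recovered reads edgeR called 3 genes and DESeq2 77.

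Genes of cell division were lower 8 weeks after banding. Of 34 tested cell cycle genes, 12 fell, 33 lay below 0, the median log2 fold change was −0.75, and the libraries did not overlap for 19. The list summed to 7233, 7259, 8626 and 7609 in replicates 1, 3, 4 and 5 of banding 8 weeks, against 12878, 9247, 8349, 9540 and 9386 in banding 4 weeks. Replicate 1 of banding 4 weeks was the highest of the 9, and replicate 4 of banding 8 weeks lay above replicate 3 of banding 4 weeks. Without replicate 1, 3 or 5 of banding 8 weeks 6, 5 and 7 members were called, without replicate 1 or 5 of banding 4 weeks 4 and 6, and without the atrial-rich libraries 4.

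Top2a (NM_022183), the topoisomerase that untangles DNA in dividing cells, had 144, 129, 152 and 164 in banding 8 weeks and 598, 393, 299.8, 306 and 365 in banding 4 weeks. The 8-week libraries were tightly grouped and far below the 4-week ones. Top2a fell by 1.36 ± 0.20 on the log2 scale (limma, adjusted p = 0.00279). Ccnb1 (NM_171991), the cyclin B1 that starts mitosis with Cdk1, had 20.03, 15.8, 30.7 and 26.8 in banding 8 weeks and 117, 72.96, 56.3, 46.2 and 75.8 in banding 4 weeks, also apart. Its log2 fold change was −1.59 ± 0.31 (limma, adjusted p = 0.0166), and the call was lost without replicate 3 of banding 8 weeks or 1 of banding 4 weeks. Bub1, a kinase of the spindle checkpoint, had 60.1, 54.5, 66.8 and 66.5 in banding 8 weeks and 201, 124, 127, 114 and 148 in banding 4 weeks. No library overlapped, and Bub1 changed by −1.17 ± 0.17 (limma, adjusted p = 0.00279).

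**Figure D2:**
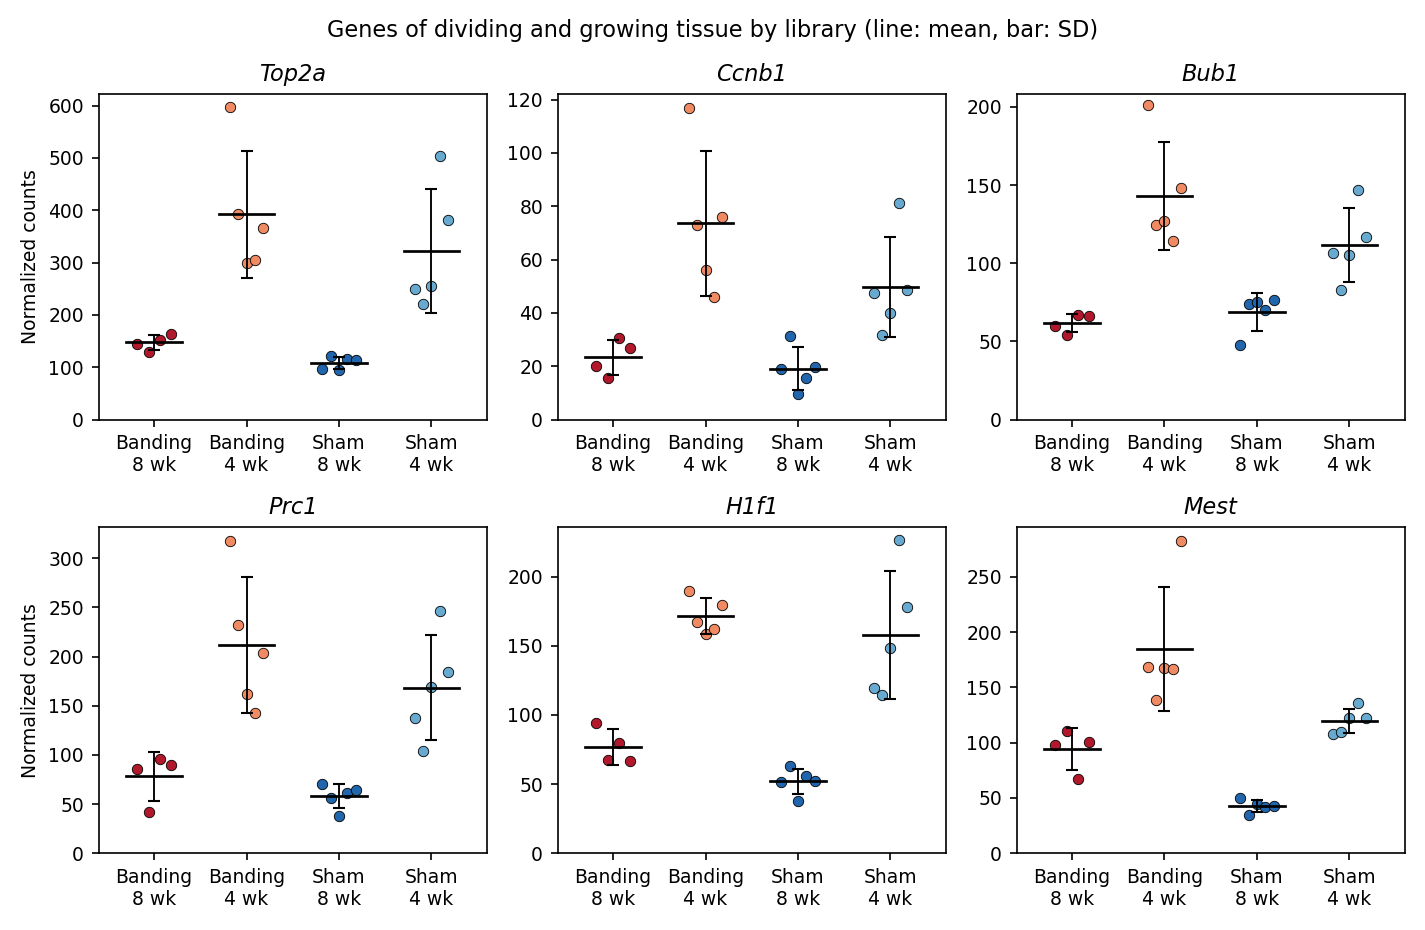
Normalized counts (y axis, linear, from 0) of Top2a, Ccnb1, Bub1, Prc1, H1f1 and Mest in each library, with the group mean as a line and the SD as a bar. For Top2a the banding 8 weeks libraries sit between 129 and 164, under 299.8 to 598 in banding 4 weeks, and the sham 8 weeks libraries sit between 95.5 and 121, under 221 to 504 in sham 4 weeks.

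Other named genes of mitosis fell by similar amounts with no overlap between libraries. They were the kinesin Kif20b (−1.45 ± 0.29), the spindle midzone protein Prc1 (−1.44 ± 0.26), the mitotic kinase Cdk1 (−1.32 ± 0.29), the kinetochore protein Cenpf (−1.31 ± 0.22), the cytokinesis factor Ect2 (−1.30 ± 0.27) and the hyaluronan-mediated motility receptor Hmmr (−1.28 ± 0.28), with limma adjusted p between 0.00963 and 0.0283. Prc1 and Cenpf held without any 1 banded library, as did Top2a and Bub1. Cdk1 lost its call without replicate 3 or 5 of banding 8 weeks or 1, 2 or 5 of banding 4 weeks, Hmmr without 1 or 3 of banding 8 weeks or 1 or 2 of banding 4 weeks, and Kif20b and Ect2 without 3 of banding 8 weeks or 1 of banding 4 weeks. Mki67, the proliferation marker Ki-67, was named after its values were seen. It averaged 212 ± 15.1 and 397 ± 95.3, with a fall of 0.87 ± 0.22 (limma, adjusted p = 0.0476) that was lost without each of 7 banded libraries, all except replicates 3 and 4 of banding 4 weeks.

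Several genes that act before mitosis did not pass. The G1 cyclins Ccnd1, Ccnd2, Ccne1 and Ccne2 had log2 fold changes of −0.20, −0.03, −0.55 and −0.35, and none passed. Of the 6 subunits of the MCM helicase that opens DNA for replication, the largest changes were those of Mcm5 (−0.95) and Mcm3 (−0.69), and none passed either. Among enzymes that make DNA building blocks, Tyms (−0.73) and Rrm1 (−0.57) fell. Cdkn1a, the cell cycle inhibitor p21, was the single member above 0, at 0.19. These examples were chosen after their values were seen.

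Histone genes that are made during DNA replication were lower too. In a set gathered after their values were seen, 8 of 20 tested histone genes fell, with a median of −0.87, beside 0.659% of all genes called lower. H1f1, a linker histone, had 94.1, 67.4, 79.5 and 66.5 in banding 8 weeks and 189, 167, 159, 162 and 179.8 in banding 4 weeks. The groups were far apart, and H1f1 changed by −1.16 ± 0.17 (limma, adjusted p = 0.00279). Histone genes share near-identical sequences, so reads can be split between them and single values are uncertain.

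The fall of dividing-cell genes was also present without a band. In sham, 21 of the 34 cell cycle genes fell, with a median of −0.95, and 15 of the 20 histones, with a median of −1.20. Top2a averaged 109 ± 11.6 in sham 8 weeks and 322 ± 119 in sham 4 weeks and changed by −1.49 ± 0.19 (limma, adjusted p = 8.57e-05). The test of the difference between both time effects called 0 of the 34 cell cycle genes by limma, edgeR or DESeq2, with 3 at an unadjusted p under 0.05, and the median difference was 0.02. For Top2a the difference was 0.13 ± 0.28 and for Bub1 −0.48 ± 0.24, and neither passed (limma, adjusted p = 0.889 and 0.439). Summed levels of the cell cycle list were between 4292 and 4790 in sham 8 weeks and between 5660 and 8066 in sham 4 weeks, so that every banding 8 weeks library was above every sham 8 weeks library.

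**Figure D3:**
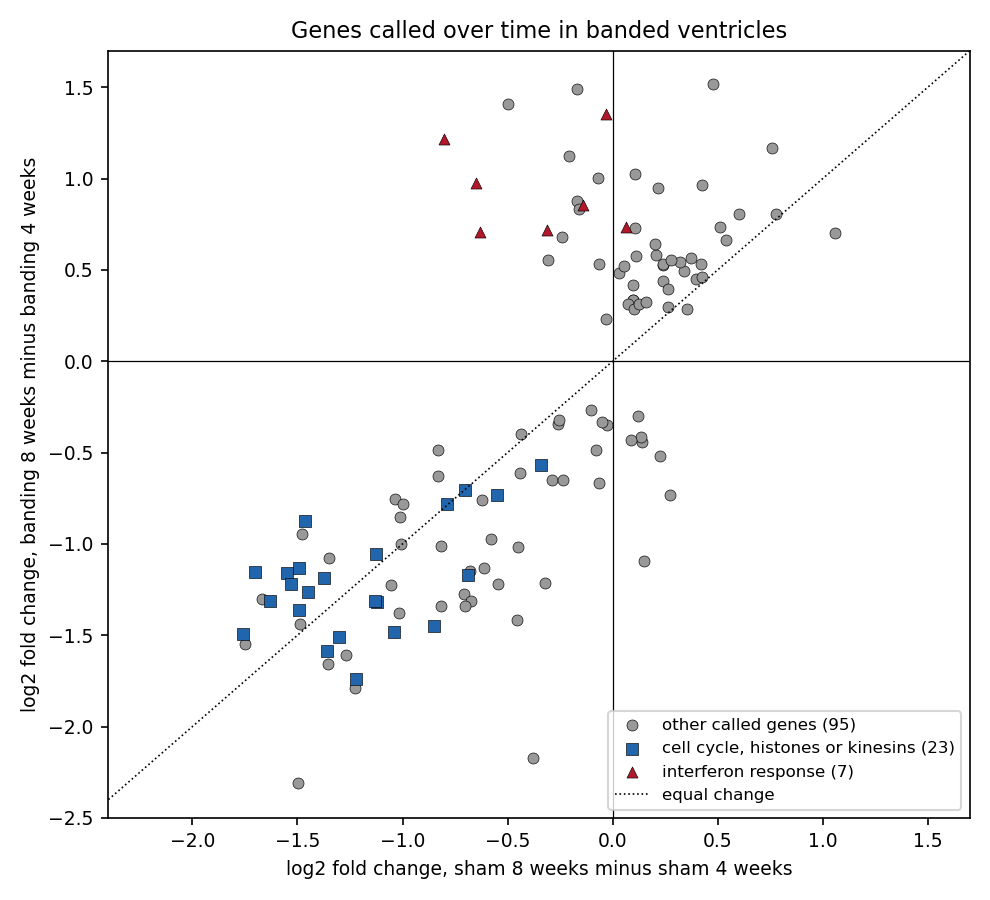
Each point is 1 of the 125 genes called over time in banded ventricles, placed by its log2 fold change in sham 8 weeks minus sham 4 weeks (x axis) and in banding 8 weeks minus banding 4 weeks (y axis). The 23 genes of the cell cycle list, the histones or the kinesins (squares) lie below 0 on both axes, and the 7 interferon-response genes (triangles) lie above 0 in banding and between −0.80 and 0.06 in sham.

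The fold changes of the banding and sham comparisons have no library in common. Their p-values share 1 estimate of the spread for each gene, so the 2 sets of calls are not independent. With only the banded groups in the fit, 44 genes were called higher and 73 lower. Of the 72 genes that fell in banding, 41 (56.9%) also fell in sham, beside 3.86% of all genes. These are 9.72% of the 422 genes that fell there, and 65 of the 72 had the same sign. Of the 53 that rose, 12 (22.6%) also rose in sham, beside 2.67% of all genes. These are 4.11% of the 292 that rose there. In sham 37 of the 53 had the same sign, and 2, Oasl2 and Rsad2, fell. Read the other way, 238 of the 292 lay above 0 in banding, beside 50.5% of all genes. Of the 422, 348 lay below 0 in banding, beside 49.5%. Median log2 fold changes of the 53 were 0.58 in banding and 0.11 in sham, and those of the 72 were −1.11 in banding and −0.82 in sham. Of the 53, the difference between the time effects passed for 2 and of the 72 for 0, while 30 and 17 had an unadjusted p under 0.05 for it. The 53 and the 72 were picked by their change in banding, which is also a part of that difference. That choice raises these counts and the medians in banding, so they are no separate test of a difference from sham.

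Imprinted and growth-related genes held 1 call in banding. Mest, an imprinted gene of fetal growth, had 98.1, 110.4, 66.8 and 101 in banding 8 weeks and 169, 139, 168, 166 and 283 in banding 4 weeks. The 8-week libraries were all below the 4-week ones, and replicate 5 of banding 4 weeks stood far above its group. Mest fell by 0.95 ± 0.17 (limma, adjusted p = 0.0147), and in sham it averaged 42.5 ± 5.57 at 8 weeks and 119.6 ± 11.3 at 4 weeks, a change of −1.48 ± 0.16 (limma, adjusted p = 2.44e-05). It was the 1 member of 17 tested in this list that passed in banding, while 5 fell in sham. Myl9, the regulatory light chain of smooth muscle, was chosen after its values were seen and had 1318, 1257, 1051 and 1247 in banding 8 weeks and 1689, 2090.0, 2292, 1913 and 2346 in banding 4 weeks, with no overlap. It changed by −0.76 ± 0.13 in banding (limma, adjusted p = 0.00963) and by −1.03 ± 0.12 in sham (limma, adjusted p = 5.62e-05). The list of pericyte and smooth muscle markers, which does not hold Myl9, did not fall with it in banding. Of its 18 members 0 were called by limma, edgeR or DESeq2, 13 lay above 0 and the median was 0.10. Its sums were between 40036 and 45686 in banding 8 weeks and between 34949 and 41040 in banding 4 weeks.

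Among heart muscle transcripts, those of Myh7, Xirp2 and Alpk3 were higher after 8 than after 4 weeks of banding, while the list of adult sarcomere and calcium handling genes had 0 of 19 called by limma. Of 17 tested genes of the stretch and fetal program, 2 rose, with a median of 0.19. Myh7 (NM_017240), the β-myosin heavy chain, had 91157, 126638, 121274 and 106532 normalized counts in banding 8 weeks and 74495, 60484, 50294, 92653 and 48154 in banding 4 weeks. Replicate 4 of banding 4 weeks lay just above replicate 1 of banding 8 weeks, so the groups overlapped by that pair. Myh7 rose by 0.81 ± 0.17 (limma, adjusted p = 0.0212), a call lost without replicate 3 or 4 of banding 8 weeks or 5 of banding 4 weeks. In sham it also rose, by 0.60 ± 0.16 (limma, adjusted p = 0.0247), at a far lower level, 12045 ± 2739 in sham 8 weeks and 7812 ± 801 in sham 4 weeks, and the difference between the log2 changes was 0.20 ± 0.23 (limma, adjusted p = 0.771).

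Myh6 (NM_017239), the α chain, had 110682, 115287, 102826 and 96548 in banding 8 weeks and 144187, 149610.0, 154199, 153161 and 144556 in banding 4 weeks. Every 8-week library was below every 4-week one, but the log2 fold change of −0.49 ± 0.13 did not pass in limma (adjusted p = 0.0577). The same gene passed in edgeR (adjusted p = 0.0140) and DESeq2 (adjusted p = 4.72e-05) on recovered reads. In sham it averaged 262330.0 ± 20436 at 8 weeks and 246100.0 ± 34473 at 4 weeks, with a change of 0.10 ± 0.12 (limma, adjusted p = 0.695).

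Xirp2 (NM_201989), a protein of the intercalated disc that binds actin, had 26406, 64419, 61417 and 31414 in banding 8 weeks and 35175, 17334, 18466, 25976 and 16701 in banding 4 weeks. Replicates 3 and 4 of banding 8 weeks were about level with each other and well above the other 2, which overlapped the 4-week range. Xirp2 rose by 0.97 ± 0.22 (limma, adjusted p = 0.0316), a call lost without replicate 3 or 4 of banding 8 weeks or 2, 3 or 5 of banding 4 weeks. Alpk3, a muscle kinase of the sarcomere chosen after its values were seen, averaged 5251 ± 959 and 3684 ± 886 and rose by 0.52 ± 0.13 (limma, adjusted p = 0.0414). The call of Alpk3 was lost without replicate 3 or 4 of banding 8 weeks or 1, 2, 3 or 5 of banding 4 weeks. Csdc2, an RNA-binding protein, had 132, 209, 202 and 134 in banding 8 weeks and 102, 120.2, 79.3, 115 and 66.5 in banding 4 weeks with no overlap and rose by 0.81 ± 0.19 (limma, adjusted p = 0.0327), a call lost without replicate 3 or 4 of banding 8 weeks or 1, 3 or 5 of banding 4 weeks. It rose by 0.78 ± 0.17 in sham as well (limma, adjusted p = 0.0102).

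The natriuretic peptides and skeletal actin did not pass between 4 and 8 weeks of banding. Nppa, which encodes ANP, had 23715, 22747, 34942 and 30167 in banding 8 weeks and 7878, 25203, 27403, 11738 and 26642 in banding 4 weeks, with 2 of the 4-week libraries far below the rest. Its log2 fold change was 0.64 ± 1.39 (limma, adjusted p = 0.881). The SE is taken from all 4 groups, and in sham Nppa ran from 126 to 30976 at 8 weeks and from 76.2 to 14197 at 4 weeks. Nppa was called under 0 of 22 alternatives, a fit of only the banded groups among them. Nppb, which encodes BNP, averaged 4587 ± 960.2 in banding 8 weeks and 4059.8 ± 851 in banding 4 weeks (0.18 ± 0.40; limma, adjusted p = 0.884). Its SE also takes in sham values of 195 to 591 at 8 weeks and 85.9 to 502 at 4 weeks. Nppb too was called under 0 of 22 alternatives. Acta1, the skeletal α-actin of the fetal heart, had 24922, 39561, 45606 and 22442 in banding 8 weeks and 66547, 24446, 17954, 43344 and 24122 in banding 4 weeks, a wide range in both groups, and its log2 fold change was 0.01 ± 0.31 (limma, adjusted p = 0.989), with the sign turned by quantile normalization (−0.044). Atp2a2, the calcium pump of the sarcoplasmic reticulum, has 3 transcript IDs in the table, of which 2 are listed at 0 in every library. The values are those of the third, a non-coding ID, so they are not the level of the whole gene. That ID averaged 122 ± 22.99 and 123 ± 26.6 (limma, adjusted p = 0.987). Of 19 adult sarcomere and calcium handling genes, 0 were called by limma, with 0 higher and 1 lower at an unadjusted p under 0.05 (Myh6) and 1 lower by edgeR and DESeq2.

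**Figure D4:**
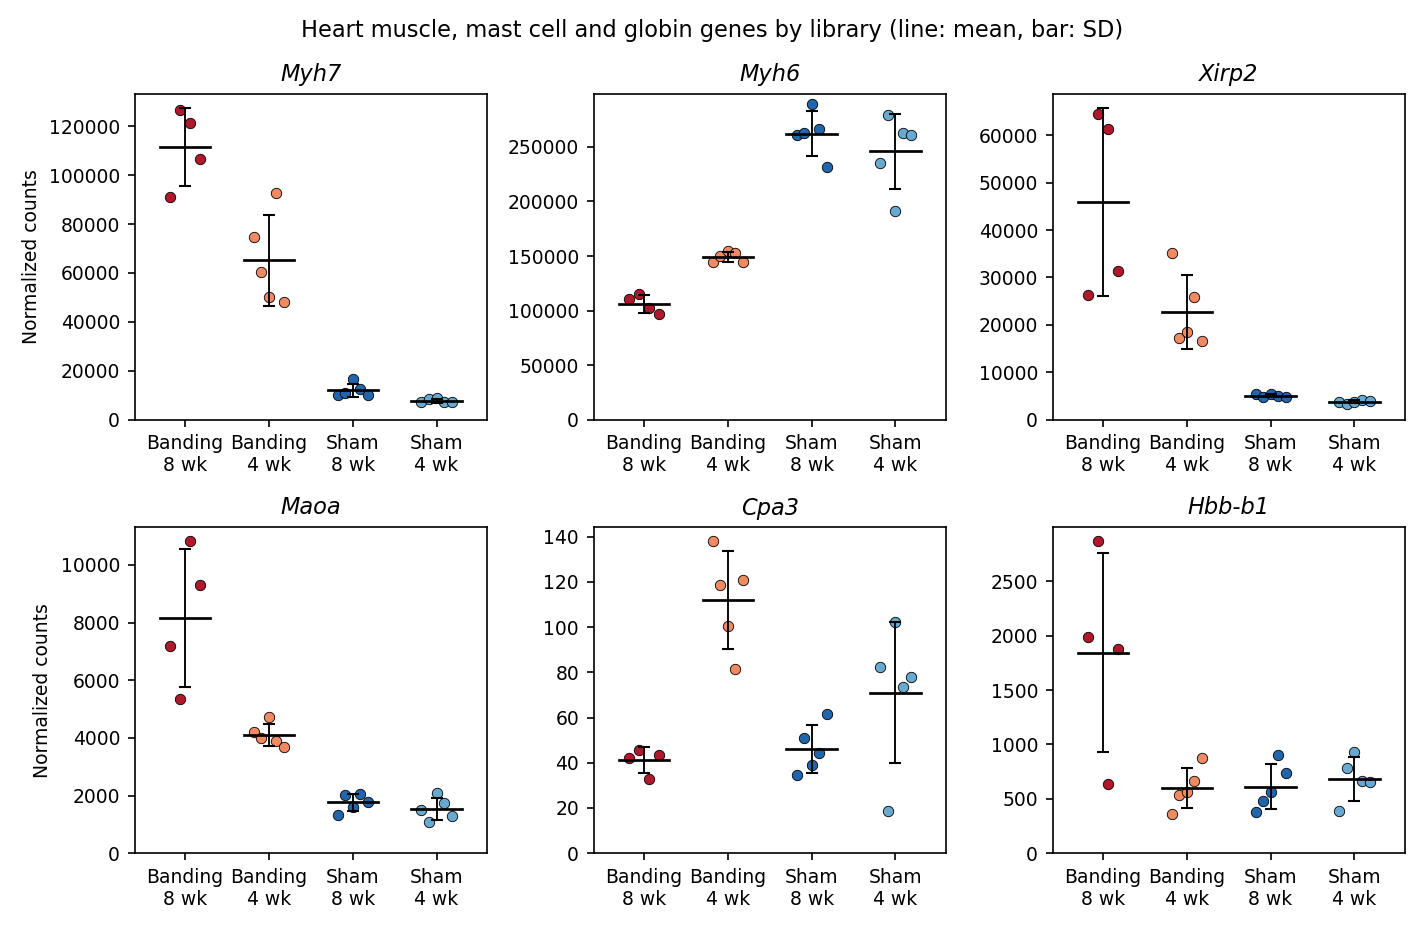
Normalized counts (y axis, linear, from 0) of Myh7, Myh6, Xirp2, Maoa, Cpa3 and Hbb-b1 in each library, with the group mean as a line and the SD as a bar. Myh7 sits between 91157 and 126638 in banding 8 weeks and between 48154 and 92653 in banding 4 weeks, and Myh6 between 96548 and 115287 in banding 8 weeks and between 144187 and 154199 in banding 4 weeks.

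Maoa (NM_033653), the mitochondrial monoamine oxidase that breaks down noradrenaline and serotonin and makes hydrogen peroxide, was among the clearest rises. It had 7175, 5353, 10829 and 9306 in banding 8 weeks and 4197, 4004, 4715, 3897 and 3683 in banding 4 weeks. All 8-week libraries were above all 4-week ones, and the 8-week group was the more spread. Maoa rose by 0.95 ± 0.18 (limma, adjusted p = 0.0166), a call that held without any 1 banded library and under each of 22 alternatives. In sham it averaged 1760.3 ± 309 at 8 weeks and 1534 ± 391 at 4 weeks, with a change of 0.22 ± 0.17 (limma, adjusted p = 0.516), and the difference of 0.73 ± 0.25 did not pass (limma, adjusted p = 0.259). In the oxidative stress list of 27 genes the other member called was Cat, the catalase that breaks down hydrogen peroxide. Cat averaged 2210.3 ± 116 and 1809.9 ± 99.6 and rose by 0.29 ± 0.06 in banding (limma, adjusted p = 0.0283) and by 0.35 ± 0.06 in sham (limma, adjusted p = 0.00121). The banding call of Cat was lost without any of 7 banded libraries, all except replicates 3 and 4 of banding 4 weeks.

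Adra1d, an α1-adrenergic receptor that noradrenaline also acts on, had 18.02, 14.3, 5.35 and 21.3 in banding 8 weeks and 51.1, 30.04, 33.2, 24.9 and 27.2 in banding 4 weeks, low counts with no overlap. It fell by 1.22 ± 0.28 (limma, adjusted p = 0.0309), the 1 member called of 23 adrenergic and hormone receptors, and the call was lost without replicate 3 or 4 of banding 8 weeks or 1, 2 or 5 of banding 4 weeks. In sham it averaged 95.98 ± 19.7 at 8 weeks and 139.9 ± 22.3 at 4 weeks and its change of −0.55 ± 0.26 did not pass (limma, adjusted p = 0.228).

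Among other rises, Abcb1a, a drug efflux pump of small vessels, had 74.1, 80.3, 76.8 and 64.7 in banding 8 weeks and 18.9, 50.1, 47.97, 22.7 and 33.7 in banding 4 weeks. The 8-week values were close together and above the whole 4-week range. Abcb1a rose by 1.17 ± 0.23 in banding (limma, adjusted p = 0.0182) and by 0.76 ± 0.22 in sham (limma, adjusted p = 0.0412), with the banding call lost without replicate 3 of banding 8 weeks or 1 of banding 4 weeks. Cyfip2, a regulator of actin assembly through the WAVE complex, had 74.1, 146, 82.2 and 73.9 and 32.9, 44.3, 53.5, 38.9 and 37.5, with replicate 3 of banding 8 weeks far above the others. It rose by 1.12 ± 0.26 (limma, adjusted p = 0.0315), and the call was lost without replicate 3 or 4 of banding 8 weeks or 1, 2, 4 or 5 of banding 4 weeks. Hipk2, a nuclear kinase, averaged 1382 ± 309.6 and 826 ± 146 without overlap and rose by 0.73 ± 0.15 (limma, adjusted p = 0.0204), a call lost without replicate 3 of banding 8 weeks or 1 or 5 of banding 4 weeks.

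Mast cell proteases were lower 8 weeks after banding. Cpa3, the carboxypeptidase of mast cell granules, had 42.1, 45.9, 32.7 and 43.4 in banding 8 weeks and 138, 119, 101, 81.4 and 121 in banding 4 weeks. The 8-week libraries were close together and below all 4-week ones. Cpa3 fell by 1.41 ± 0.32 (limma, adjusted p = 0.0315), Cma1, the chymase that can form angiotensin II, by 1.31 ± 0.29 (limma, adjusted p = 0.0297), and Mcpt1l1, a mast cell protease with close copies and so uncertain, by 1.34 ± 0.29 (limma, adjusted p = 0.0283). Tpsb2, a tryptase chosen after its values were seen, averaged 26.98 ± 10.02 and 55.98 ± 4.81 and fell by 1.10 ± 0.25 (limma, adjusted p = 0.0328). In a set of mast cell proteases gathered after their values were seen, 4 of 6 tested fell and none of the 6 overlapped, and their summed counts were 252, 175, 148 and 213 in banding 8 weeks, against 515, 481, 438, 402 and 528 in banding 4 weeks. In sham the sums were between 161 and 273 at 8 weeks and between 144 and 469 at 4 weeks, the groups overlapped and 0 of the 6 passed in limma, 1 in edgeR and 1 in DESeq2, with 3 lower at an unadjusted p under 0.05. Of the 6, 5 lay below 0 in sham and 1 above, with a median log2 fold change of −0.51. Replicate 2 of sham 4 weeks stood apart from its group, as the lowest, for Cpa3 (18.6) and Mcpt1l1 (48.7). The difference between the time effects was called for 0 of the 6 by limma, edgeR or DESeq2, with 2 at an unadjusted p under 0.05. The 4 banding calls were each lost without replicate 3 or 4 of banding 8 weeks or 1, 2 or 5 of banding 4 weeks, that of Cpa3 also without 1 or 5 of banding 8 weeks, that of Mcpt1l1 without 5 of banding 8 weeks and that of Tpsb2 without 4 of banding 4 weeks. In the wider list of neutrophil and mast cell markers 3 of 11 tested fell, all of them mast cell proteases, with sums between 341 and 507 in banding 8 weeks and between 523 and 611 in banding 4 weeks.

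Hemoglobin transcripts, which come from red cells and their precursors, were higher in 3 of the 4 libraries of banding 8 weeks. Hbb-b1, a β-globin with near-identical copies and so uncertain, had 1989, 2873, 640.1 and 1875 in replicates 1, 3, 4 and 5 of banding 8 weeks and 362, 536, 563, 659 and 876 in banding 4 weeks. Replicate 4 of banding 8 weeks lay inside the 4-week range. Hbb-b1 rose by 1.49 ± 0.33 (limma, adjusted p = 0.0297), and the call was lost without replicate 1, 3 or 5 of banding 8 weeks or 1 or 2 of banding 4 weeks. In the red cell list 1 of 7 tested members was called by limma, 3 by edgeR and 4 by DESeq2, and 7 lay above 0, with a median of 1.35. In a set of globins gathered after their values were seen, 2 of 6 tested were called by limma, 5 by edgeR and 6 by DESeq2, with a median of 1.43, and the second limma call was Hbbl1 (1.41 ± 0.35; limma, adjusted p = 0.0486), lost without any 1 banded library except replicate 4 of banding 8 weeks. The difference between the time effects was called for 0 of the 6 globins by limma and edgeR and for 3 by DESeq2, with 6 at an unadjusted p under 0.05. The red cell list summed to 10322, 15084, 3016 and 10106 in banding 8 weeks and between 1933 and 4605 in banding 4 weeks. The interferon list summed to 8762 in replicate 4 of banding 8 weeks, the lowest of its group in these transcripts, and to 8029 in replicate 3, the highest. Whether blood left in the tissue has a part in any of these values was not tested.

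Matrix genes did not pass in limma between 4 and 8 weeks of banding. The collagen list summed to between 40623 and 46137 in banding 8 weeks and between 50703 and 69585 in banding 4 weeks, without overlap. Of 14 collagens, 0 passed in limma, 0 were higher and 4 lower at an unadjusted p under 0.05, edgeR and DESeq2 called 0 and 2, and the median log2 fold change was −0.23. Col3a1, a fibrillar collagen, had 20234, 18101, 20202 and 21791 in banding 8 weeks and 38227, 32271, 33216, 26632 and 30423 in banding 4 weeks. The groups did not overlap, but the change of −0.67 ± 0.19 did not pass (limma, adjusted p = 0.0799). Col3a1 passed under 3 of 22 alternatives, but not in edgeR (adjusted p = 0.0876) or DESeq2 (adjusted p = 0.0794). Col1a1 averaged 3629 ± 644 in banding 8 weeks and 5098 ± 702 in banding 4 weeks (−0.50 ± 0.26; limma, adjusted p = 0.414). Postn, the matricellular protein periostin made by activated fibroblasts, averaged 2220.1 ± 634 and 2353 ± 699.6 (−0.07 ± 0.37; limma, adjusted p = 0.955), and its sign turned without the atrial-rich libraries (0.0011). In sham 10 of the 14 collagens fell, with a median of −0.65. There Col3a1 averaged 16569 ± 4056 at 8 weeks and 39144 ± 13817 at 4 weeks (−1.21 ± 0.18; limma, adjusted p = 0.000317), and Postn 163 ± 71.8 and 731 ± 395 (−2.11 ± 0.35; limma, adjusted p = 0.000973). The difference between the time effects passed for 0 of the 14 collagens in limma, edgeR or DESeq2 (8 at an unadjusted p under 0.05, and all 14 above 0), and Postn did not pass (2.04 ± 0.51; limma, adjusted p = 0.118).

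Of 27 matricellular and elastic matrix genes 0 were called by limma or edgeR and 1 lower by DESeq2, with 2 higher and 4 lower at an unadjusted p under 0.05 and a median of 0.16, against 6 lower and a median of −0.48 in sham. In all 27 the difference between the time effects lay above 0, with 8 at an unadjusted p under 0.05, 0 called by limma or edgeR and 2 by DESeq2. Fibroblast markers had 1 of 18 called, Gsn, the actin-severing protein gelsolin, which averaged 14239 ± 2004 in banding 8 weeks and 9835 ± 1193 in banding 4 weeks and rose by 0.53 ± 0.13 (limma, adjusted p = 0.0393), a call that was lost without any of 8 banded libraries, all except replicate 2 of banding 4 weeks. Endothelial markers had 0 of 24 called by limma, edgeR or DESeq2, 1 higher and 2 lower at an unadjusted p under 0.05, and a median of −0.06.

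Energy metabolism genes did not pass between 4 and 8 weeks of banding. In the respiratory chain and ATP synthase list 0 of 43 genes were called by limma, edgeR or DESeq2 (6 lower and 0 higher at an unadjusted p under 0.05), 42 of 43 lay below 0 and the median was −0.15. Tricarboxylic acid cycle genes had 0 of 27 called by limma or edgeR, 1 lower by DESeq2, 7 lower at an unadjusted p under 0.05 and a median of −0.13. Genes of fatty acid uptake and oxidation had 0 of 32 called by limma or edgeR, 1 lower by DESeq2, 5 lower at an unadjusted p under 0.05 and a median of −0.11. Below 0 lay 25 of the 27 and 26 of the 32, beside 49.5% of all genes. On the lower side the libraries did not overlap for 2, 6 and 2 members of the 3 lists, beside 3.04% of all genes. In sham the medians of these lists were above 0, at 0.13, 0.16 and 0.26, and 2 members of the second and 13 of the third list rose. The difference between the time effects was called for 0 members of the 3 lists by limma or edgeR and for 0, 3 and 7 by DESeq2, with 17, 20 and 22 lower at an unadjusted p under 0.05. It lay below 0 for 42, 27 and 32 members, beside 49.3% of all genes. Acadvl, the first enzyme of long-chain fatty acid oxidation and the member with the smallest p in its list, changed by −0.27 on the log2 scale (limma, adjusted p = 0.0667).

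Immediate early genes, which respond within minutes to stress or handling, had 0 of 23 called by limma, edgeR or DESeq2, 1 higher at an unadjusted p under 0.05 and a median of 0.31. Their summed level was 15008 in replicate 1 of banding 8 weeks, the library that was also the highest in the interferon list, and between 5381 and 8281 in the other 3, against 5656 to 8336 in banding 4 weeks. Cytosolic ribosomal proteins (24) and clock genes (15) had 0 called by limma, edgeR or DESeq2 and 0 at an unadjusted p under 0.05, with medians of −0.02 and −0.01.

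**Figure D5:**
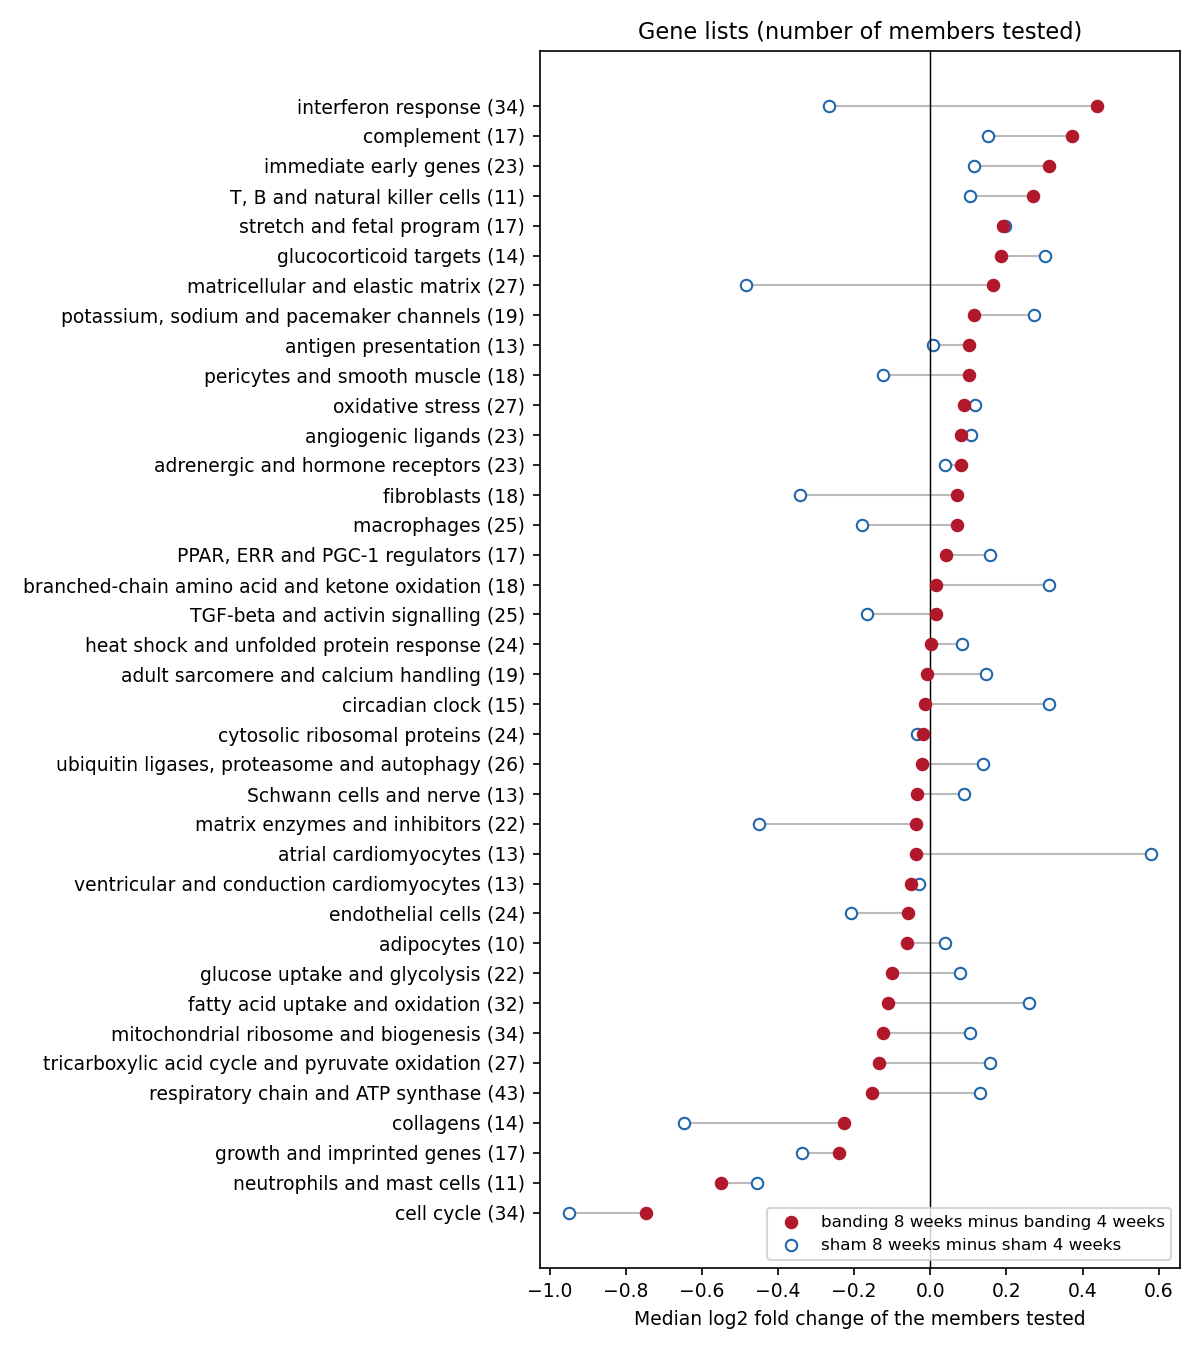
Median log2 fold change of the tested members of 38 gene lists with at least 10 tested members (number tested in brackets), leaving out the sets gathered after their values were seen, for banding 8 weeks minus banding 4 weeks (filled) and sham 8 weeks minus sham 4 weeks (open). Of the lists plotted, the interferon list is the highest in banding at 0.44 and lies at −0.27 in sham. The cell cycle list is the lowest of those plotted in both, at −0.75 and −0.95. The red cell list, with 7 tested members and a median of 1.35 in banding, is not plotted.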

How the data were processed

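Right ventricle RNA of 4 banding 8 weeks, 5 banding 4 weeks, 5 sham 8 weeks and 5 sham 4 weeks libraries was compared. Per the labels' protocols, tissue was snap frozen, total RNA came from a Trizol extraction checked by Qubit and Bioanalyzer, and 800 ng of it was depleted of ribosomal RNA and made into libraries with TruSeq Ribo-Zero Gold. STAR, DESeq2 and the build rn6 are named in the submitters' processing notes. How reads were counted, and whether by strand, was not given in the sources used here, so overlapping and antisense genes cannot be told apart.

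The authors deposited a signal, normalized counts for 18282 RefSeq transcript IDs in 19 columns, all matched to labelled samples. Replicate 2 of banding 8 weeks was not analysed here. All 100% of positive values were whole multiples of 1 step per library within 0.001, so whole reads were recovered, 2.70 to 8.54 M per library. The authors' deposited comparison table of 4 against 8 weeks of banding holds a log2 fold change, a Wald statistic and its standard error (scores) and the p-value, raw and adjusted, of each ID. It runs 4 minus 8 weeks, since 271 of its 271 called signs were opposite to the group means used here, and directions are given the other way round. RefSeq's GRCr8 table named 17359 IDs, a deposited comparison table named 922 more, and 1 had no name. Genes with several IDs numbered 585.

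Values were tested as log2(normalized count + 1) with limma 3.58.1 in R 4.3.3 (empirical Bayes with trend, 2-sided), over 10926 IDs with at least 10 in at least 4 libraries, called genes. All 4 groups entered 1 model, which gave banding 8 minus 4 weeks, sham 8 minus 4 weeks and their difference, each adjusted over all genes by Benjamini-Hochberg and called under 0.05. Adding 1 before the logarithm shrinks the fold changes of weakly expressed genes. Fold changes carry their SE and group values their SD. Limma's fit was tested on simulated data. On the recovered reads edgeR 4.0.16 called 59 genes higher and 68 lower in the banding comparison and DESeq2 1.42.0 called 133 and 138.

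Genes named by rule were the 10 largest rises and 10 largest falls among called genes that had a mean of at least 50 over the banded libraries and no overlap, up to 2 called members with the smallest p of each of 42 lists, and 9 cardiac and matrix genes whatever their values (Postn, Col3a1, Col1a1, Atp2a2, Acta1, both myosin heavy chains and both natriuretic peptides). Members and lists were chosen with earlier results of these data known, and lists are described by counts and medians, not tested. Alternatives were pseudocounts of 0.5 and 5, no filter, a mean of at least 50, TMM and quantile scaling, a robust fit, only the groups compared, the replicate number as a block, no libraries with Myl7 over 1000 (7 of 19), an atrial score as a covariate, and each library left out.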

Additional observations from a re-analysis of the deposited data

Results flagged for a closer look

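For 3 genes the change over time differed between banded and sham-operated ventricles when the difference itself was tested: Oasl2 by 2.02, Rsad2 by 1.34 and Fxyd6 by 0.87 on the log2 scale (limma, adjusted p = 0.0101 for each). These differences kept their sign under all alternatives, and each lost its call under 1 of them.

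In 16 of 216 sets, each 1 gene in 1 group, a single library stood apart from the others of its group by Dixon's criterion at 95%, which chance alone gives in about 1 in 20. In banding 8 weeks these were replicate 3 for Cyfip2 (146 normalized counts) and Prc1 (41.6). In banding 4 weeks they were replicate 3 for Oasl2 (57.2) and Oas1b (71.0), replicate 5 for Mest (283) and replicate 4 for Alpk3 (5253). In sham 8 weeks they were replicate 1 for Hipk2 (1153), Bub1 (47.8) and Mlf1 (751), replicate 2 for Oasl2 (14.8) and replicate 4 for Mx2 (214). In sham 4 weeks they were replicate 2 for Cpa3 (18.6) and Mcpt1l1 (48.7), replicate 3 for Ifi27l2b (191), replicate 4 for Acta1 (9291) and replicate 1 for Usp18 (92.9).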

How the results depend on the processing

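Of 1180 values of named genes under the alternatives, 905 kept their direction and side of the threshold, 241 kept the direction but lost the call, 9 gained one and 25 changed sign, all in genes that were not called. Acta1 gave −0.044 with quantile normalization, −0.063 with the replicate block, −0.18 without atrial-rich libraries, −0.030 with the atrial score, −0.090 with edgeR and DESeq2, and −0.19 to 0.28 leaving out 1 library (below 0 at −0.077, −0.082, −0.093, −0.16 and −0.19). Atp2a2 gave 0.027 with the block, 0.0019 with the atrial score and −0.15 to 0.069 leaving out 1 library (above 0 at 0.0029, 0.0078, 0.024, 0.045, 0.069 and 0.069). Postn gave 0.0011 without atrial-rich libraries, 2.4e-05 with the atrial score and −0.24 to 0.074 leaving out 1 library (above 0 at 0.0031, 0.0099, 0.044 and 0.074). The call held without each banded library in turn for 13 of 45 called named genes: Oasl2, Maoa, Ifi27l2b, RT1-S3, Prc1, Top2a, Cenpf, Bub1, Mest, H1f1, Myl9, Mlf1 and Agpat3. TMM and quantile scaling moved the median of all genes by under 0.1.

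Higher and lower calls in banding, 53 and 72, were 26 and 38 with no filter, 26 and 24 without atrial-rich libraries, 125 and 161 with the atrial score and 133 and 138 with DESeq2, and ran from 12 to 70 and from 23 to 80 leaving out 1 library. Interferon members called, 7, were 3 with no filter, 2 without atrial-rich libraries, 11 with the atrial score and 12 with DESeq2, and 1 to 15 leaving out 1 library. Cell cycle members called, 12, were 6 with no filter, 7 with a mean of at least 50, 4 without atrial-rich libraries and 20 with DESeq2, and 4 to 14 leaving out 1 library. Sham calls, 714, were 157 without atrial-rich libraries and 1082 with the atrial score, and 423 to 848 leaving out 1 library. Differences called, 3, were 5 with TMM, 6 with quantile scaling, 150 with the atrial score and 77 with DESeq2, and 2 to 23 leaving out 1 library. The causes were not tested, but leaving out libraries also leaves fewer samples.

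Replicate numbers did not pair the samples: residuals of same-numbered libraries of banding 8 and 4 weeks correlated at 0.01, −0.05, 0.13 and 0.11 for replicates 1, 3, 4 and 5, and 1 of the 4 correlated best with its own number. With the number as a block, 46 genes were called higher and 70 lower. Depth limits low genes most, and replicate 1 of banding 8 weeks had 2.70 M reads.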

Other observations

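Genes chosen after their values were seen, outside the groups above, are given as values. Mlf1, a protein first found as a partner in a leukemia fusion, had 401, 383, 448 and 531 normalized counts in banding 8 weeks and 700.0, 677, 701, 619 and 785 in banding 4 weeks. The groups did not overlap, and Mlf1 fell by 0.67 ± 0.10 (limma, adjusted p = 0.00279), while in sham it averaged 915 ± 93.5 at 8 weeks and 956 ± 83.1 at 4 weeks, with a change of −0.07 ± 0.09 (limma, adjusted p = 0.741). The difference of −0.60 ± 0.13 did not pass (limma, adjusted p = 0.0703). Agpat3, an acyltransferase of phospholipid synthesis, had 487, 487, 429.7 and 518 in banding 8 weeks and 709.9, 785, 679.9, 696 and 809.9 in banding 4 weeks, also apart. It changed by −0.61 ± 0.09 in banding (limma, adjusted p = 0.00279) and by −0.44 ± 0.09 in sham (limma, adjusted p = 0.00453). The calls of Mlf1 and Agpat3 in banding held without any 1 banded library.

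Aqp7, a glycerol channel, averaged 135 ± 51.2 in banding 8 weeks and 215 ± 25.8 in banding 4 weeks and fell by 0.73 ± 0.17 (limma, adjusted p = 0.0327), with replicate 1 of banding 8 weeks inside the 4-week range. In sham 8 weeks it averaged 770.3 ± 151 and in sham 4 weeks 629 ± 41.8, with a change of 0.27 ± 0.16 (limma, adjusted p = 0.343). Gdf11, a ligand of the TGF-beta family, had 134, 119, 96.9 and 112 in banding 8 weeks and 65.1, 91.6, 68.3, 73.3 and 65.5 in banding 4 weeks, with no overlap. Gdf11 rose by 0.66 ± 0.14 in banding (limma, adjusted p = 0.0223) and by 0.54 ± 0.13 in sham (limma, adjusted p = 0.0164). Cpeb1, which binds messenger RNA near the poly(A) signal, had 76.1, 81.7, 76.8 and 73.9 in banding 8 weeks and 26.4, 27.2, 32.3, 19.8 and 27.2 in banding 4 weeks. The groups were far apart at low counts, and Cpeb1 rose by 1.52 ± 0.37 (limma, adjusted p = 0.043), while sham libraries were lower still, at 11.0 ± 6.38 at 8 weeks and 7.01 ± 3.47 at 4 weeks. The limma SE is taken from all 4 groups, these low sham values among them. On recovered reads Cpeb1 passed in edgeR (adjusted p = 0.0115) and DESeq2 (adjusted p = 2.76e-06). The calls of Aqp7, Gdf11 and Cpeb1 were lost in 7, 4 and 8 of the 9 fits that leave out 1 banded library: Gdf11 without replicate 1 or 3 of banding 8 weeks or 1 or 5 of banding 4 weeks, Aqp7 without any but replicate 1 of banding 8 weeks and 3 of banding 4 weeks, and Cpeb1 without any but replicate 3 of banding 4 weeks.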
